A study of Homo sapiens with 26 samples.

Results

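The STAT family and its SOCS feedback genes were followed in 26 single cell-derived cell lines (SCDCLs) of pancreatic cancer, each measured once by mRNA sequencing. The members were chosen by symbol as STAT2, STAT3, STAT4, STAT5A, STAT5B, STAT6, SOCS1, SOCS3 and CISH, 9 of the 41078 genes in the table. An SCDCL is a line grown from a single cell picked by limiting dilution, so each library is 1 clone with no replicate library. The parental lines BxPC3 and Panc-1 were both grown from pancreatic ductal adenocarcinomas and are used as models of its classical and basal-like subtypes. There are 12 libraries labelled BxPC3 and 14 labelled Panc-1, all from polyadenylated RNA. Every label lists gemcitabine under treatment, but in the methods the drug appears only in viability assays run on their own. The labels do not give the response of a library to gemcitabine.

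STAT proteins are transcription factors that wait in the cytoplasm until a cytokine receptor is bound. The receptor's JAK kinases then phosphorylate the STAT, which pairs with another STAT, enters the nucleus and switches on target genes. Among these targets are the SOCS genes and CISH, whose proteins bind the receptor or the kinase and close the loop. In carcinoma cells STAT3 is the STAT best known to act downstream of interleukin-6 type cytokines. Messenger RNA does not show whether a STAT protein is phosphorylated.

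The labels went against the level of SMAD4, a mediator of TGF-beta signaling that is deleted in BxPC3, and the libraries were therefore also described by that level. SMAD4 was between 0 and 0.044 TPM (a transcript level corrected for transcript length and library size) in 12 libraries, of which 5 were labelled BxPC3 and 7 were labelled Panc-1. It was between 28.1 and 52.2 TPM in the other 14, of which 7 carried each label. These sets, called the 12 and the 14 libraries, were defined by a measured value, so levels are compared between them without a test. They have the same sizes as the study's 12 BxPC3 and 14 Panc-1 SCDCLs. A difference between the sets cannot be told apart from a difference between the parental lines. The 12 libraries had 90.8 to 198 TPM of the epithelial cadherin CDH1 and 1.42 to 73.2 TPM of the mesenchymal filament VIM, and the 14 had 0.338 to 7.74 and 3050 to 4530. CDKN2A, which both parental lines lack, was at 0 in every library. The total was 27144920 to 34945608 estimated counts in the 12 libraries and 27035724 to 32601392 in the 14. Mitochondrial transcripts took 3.82 to 11.9% of TPM in the 12 and 1.37 to 6.24% in the 14, and their part in the results below was not tested. The leukocyte markers PTPRC and CD3E were near 0, at no more than 0.535 TPM and 0.393 TPM. PECAM1, a marker of leukocytes and endothelial cells, was 0.897 to 6.07 TPM in the 12 and 0.321 to 5.38 TPM in the 14.

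The promoters of CISH and SOCS1 are shown because they belong to feedback genes and hold sequence motifs for which STAT proteins are known. All 9 members were found in RefSeq (GRCh38.p14), with 13 start sites in all, and each window runs from 250 bases before to 50 bases after a start site. STAT dimers bind the palindrome TTCNNNGAA, STAT6 also binds TTCNNNNGAA, and the complex of STAT2 with its partners binds interferon response elements, here searched as GAAANNGAAA. Both strands were searched and matches of the different motifs could overlap. TTCNNNGAA was found in 7.66% of 35116 promoter windows, TTCNNNNGAA in 6.44% and GAAANNGAAA in 3.57%. Capitals mark the matches in the sequences below, which are written 5′ to 3′ on the strand of the gene.

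CISH, chr3:50611725-50612024, minus strand: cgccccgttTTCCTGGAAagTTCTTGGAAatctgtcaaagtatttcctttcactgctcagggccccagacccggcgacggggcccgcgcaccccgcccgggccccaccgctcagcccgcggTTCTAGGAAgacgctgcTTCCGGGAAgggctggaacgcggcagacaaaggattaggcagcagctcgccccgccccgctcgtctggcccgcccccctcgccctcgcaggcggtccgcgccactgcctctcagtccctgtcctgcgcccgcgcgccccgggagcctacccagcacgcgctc

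SOCS1, chr16:11256155-11256454, minus strand: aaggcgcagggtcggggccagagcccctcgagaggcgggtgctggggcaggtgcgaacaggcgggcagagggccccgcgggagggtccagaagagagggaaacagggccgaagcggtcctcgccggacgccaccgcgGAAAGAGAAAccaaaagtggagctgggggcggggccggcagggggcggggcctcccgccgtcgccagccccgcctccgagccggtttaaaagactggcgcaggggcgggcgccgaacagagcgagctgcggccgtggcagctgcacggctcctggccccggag

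The CISH window held 4 copies of TTCNNNGAA, at -241, -230, -129 and -112 from the start site. Of all windows, 7 held at least 4 copies, which is 0.0199% of them. The SOCS1 window held 1 match to GAAANNGAAA, at -113. One of the 3 windows of STAT5A, chr17:42287189-42287488, held 1 match to TTCNNNNGAA, at -229. These letters were not found in the windows of the other 6 members. A match describes the sequence and does not show that a STAT is bound there in these cells.

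STAT3, STAT5B and STAT5A were lower in every one of the 12 libraries than in any of the 14. STAT3, the STAT of the interleukin-6 family, ranged from 71.6 to 108 TPM in the 12 libraries with a median of 89.1 TPM, and from 133 to 294 TPM in the 14 with a median of 204 TPM. The ranges did not overlap, and the median was 2.28-fold lower in the 12, a log2 ratio of -1.19. STAT5B, which serves growth hormone, prolactin and interleukin-2 type receptors, ranged from 16.3 to 30.5 TPM (median 21.9) in the 12 libraries and from 58.9 to 122 TPM (median 89.3) in the 14. Its close paralog STAT5A ranged from 3.74 to 9.37 TPM (median 5.63) in the 12 libraries and from 12.4 to 34.3 TPM (median 27.1) in the 14. The medians of STAT5B and STAT5A were 4.08-fold and 4.8-fold lower in the 12 libraries, and neither gene's ranges overlapped. The lowest STAT5A and STAT3 values of the 14 were both in library 18, and the lowest of the 12 were both in library 26.

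STAT6 and STAT2 went the other way, with some overlap. STAT6, the transducer of interleukin-4 and interleukin-13, ranged from 51.4 to 103 TPM (median 70.1) in the 12 libraries and from 15.8 to 51.9 TPM (median 30.4) in the 14, with 11 of the 12 above all 14. Its median was 2.31-fold higher in the 12. STAT2, the partner of IRF9 in type I interferon signaling, ranged from 11.5 to 61.6 TPM (median 34.7) in the 12 libraries and from 12 to 25.4 TPM (median 15.1) in the 14. For STAT2, 8 of the 12 libraries were above all 14 and 1, library 6, was below all of them. The median of STAT2 was 2.29-fold higher in the 12.

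STAT4, which carries interleukin-12 signals in lymphocytes, was low in all but 1 clone. It ranged from 0.224 to 19.5 TPM in the 12 libraries with a median of 1.13 TPM. The highest value came from library 1, labelled Panc-1, with 472 estimated counts, and the next highest of the 12 was 2.68 TPM in library 26, with 68.0. The mean STAT4 transcript length was 352 bases in library 1 and 752 to 1637 bases in the other 11, so its TPM, and the counts remade from TPM, rest on a short transcript. In the 14 libraries it ranged from 0 to 1.5 TPM with a median of 0.165 TPM, and 5 of these libraries had under 3 counts. Library 19 had no count, which allows up to 3 counts, or 0.104 CPM (counts scaled to the library total in the same way as TPM, without the correction for length). In the sum over libraries STAT4 had 764 counts in the 12 and 110 in the 14, and 472 of the 764 were those of library 1. PTPRC and CD3E, markers of the leukocytes that usually carry STAT4, stayed under 1 TPM in every library. PECAM1 did not, and reached 6.07 TPM in the 12 and 5.38 TPM in the 14.

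CISH, the feedback inhibitor best known as a STAT5 target, had the largest ratio of medians among the 9 genes. Between the sets, though not within the 12 libraries, it ran opposite to both STAT5 genes. It ranged from 1.76 to 4.19 TPM (median 3.01) in the 12 libraries, on 101 to 210 estimated counts each, and from 0.0209 to 0.261 TPM (median 0.118) in the 14, on 1.14 to 12.6. Every one of the 12 libraries was above every one of the 14. The log2 ratio of the medians was 4.67, or 25.5-fold. Summed over libraries, CISH had 1860 counts in the 12, or 5.11 CPM, and 82 in the 14, or 0.20 CPM. The ratio of these rates was 25.5 with an exact 95% interval of 20.5 to 32.3. The interval takes the remade counts as read counts and covers counting error only. Of the 14 libraries 4 had under 3 counts of CISH. SOCS2, a SOCS gene outside the members, was below in all 12 libraries, as both STAT5 genes were, with a log2 ratio of -2.45.

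SOCS3 and SOCS1, which inhibit JAK kinases at the receptor, overlapped between the sets. SOCS3 ranged from 8.51 to 35.4 TPM (median 17.6) in the 12 libraries and from 18.4 to 42.1 TPM (median 26.7) in the 14, with 6 of the 12 below all 14. SOCS1 ranged from 0.844 TPM in library 3 to 14.1 TPM in library 4 among the 12 (median 3.0), and from 2.17 to 8.14 TPM among the 14 (median 4.0). For SOCS1, 3 of the 12 libraries were above all 14 and 2 were below. The log2 ratio of medians was -0.60 for SOCS3 and -0.42 for SOCS1.

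In all, 4 of the 9 members had sets that did not overlap, 3 with the 12 libraries below and 1 with them above. The count was 5, with STAT6 added, in CPM scaled by edgeR's TMM factors. That CPM is not divided by gene length. Its counts were remade from TPM, so they keep TPM's correction for length differences between libraries. Of the 15246 genes with a median of at least 1 TPM in either set, 31.0% did not overlap, with the 12 libraries above in 15.2% and below in 15.8%, against which the 4 of 9 are to be read. All 9 members passed this filter, STAT4 and CISH only through the 12 libraries. The median log2 ratio was -0.42 over the members and -0.02 over all genes tested.

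**Figure D1:**
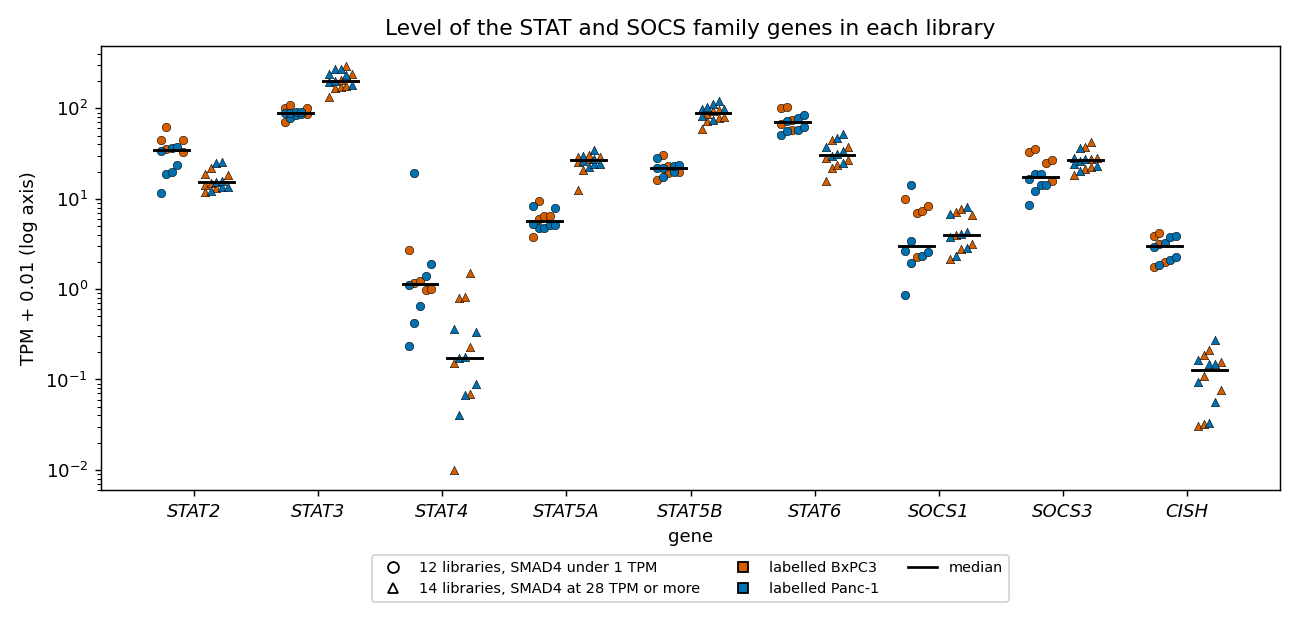
TPM plus 0.01 on a log axis for the 9 genes in each of the 26 libraries. Circles are the 12 libraries with SMAD4 under 1 TPM, triangles the other 14, colours give the label and bars the medians. CISH is above in all 12, STAT3, STAT5A and STAT5B are below in all 12, and the STAT4 circle at 19.5 TPM is library 1.

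Because TPM is corrected for length, the members could be ranked within a library. In the 12 libraries the order by median TPM was STAT3, STAT6, STAT2, STAT5B, SOCS3, STAT5A, CISH, SOCS1 and STAT4. STAT3 was above STAT6 in 11 of 12 libraries, STAT2 above STAT5B in 9, STAT5B above SOCS3 in 9 and CISH above SOCS1 in 5, so the last pair had no steady order. In the 14 libraries the order was STAT3, STAT5B, STAT6, STAT5A, SOCS3, STAT2, SOCS1, STAT4 and CISH. There STAT3 was above STAT5B and STAT5B above STAT6 in all 14, whereas STAT5A was above SOCS3 in 8 and STAT4 above CISH in 10. STAT3 had the highest median of the family in both sets, and STAT5B ranked 2 in the 14 but 4 in the 12.

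STAT5A and STAT5B share sequence, which bears on how reads were divided between them. Of the 31-base words of the protein-coding STAT5A transcripts in GENCODE 44, 690 of 4654, or 14.8%, also occur in STAT5B, and no other pair of members shares any. The mean STAT5A transcript length that the authors' table gives was 2610 to 4254 bases in the 12 libraries and 3641 to 4069 in the 14, a wider range in the 12. The genes STAT5A and STAT5B also overlap each other, on opposite strands. CISH overlaps MAPKAPK3 on the opposite strand, SOCS1 overlaps RMI2, and STAT6 overlaps NAB2 and LRP1. The libraries kept the strand, but whether it was used in counting is not given in the sources used here. NAB2 and LRP1 were above in all 12 libraries, with log2 ratios of 1.5 and 3.24, and their part in the level of STAT6 was not tested. MAPKAPK3 had a log2 ratio of 0.97 against 4.67 for CISH.

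STAT3, STAT5A and STAT5B lie next to each other on chromosome 17 (GRCh38), STAT5B at 42199176 to 42288633, STAT5A at 42287547 to 42311943 and STAT3 at 42313324 to 42388540. All of them were below in the 12 libraries, and the genes around them went in both directions. Of 17 other expressed genes within 250 kb of STAT3, 4 were above in all 12 libraries, 3 were below and 10 overlapped, where 15.2% and 15.8% of all expressed genes were above and below. The 3 below were STAT5A, STAT5B and KCNH4, a potassium channel gene with a median of 0.166 TPM in the 12 and 2.83 TPM in the 14. GHDC, between KCNH4 and STAT5B, had a log2 ratio of -0.31 with overlap. On the other side CAVIN1, which encodes a coat protein of caveolae, had a log2 ratio of -0.90 with overlap, and COASY, MLX and RETREG3 were above in the 12 with ratios of 1.26, 0.62 and 1.14. DHX58, an interferon-induced RNA sensor, was above with a ratio of 2.75.

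**Figure D2:**
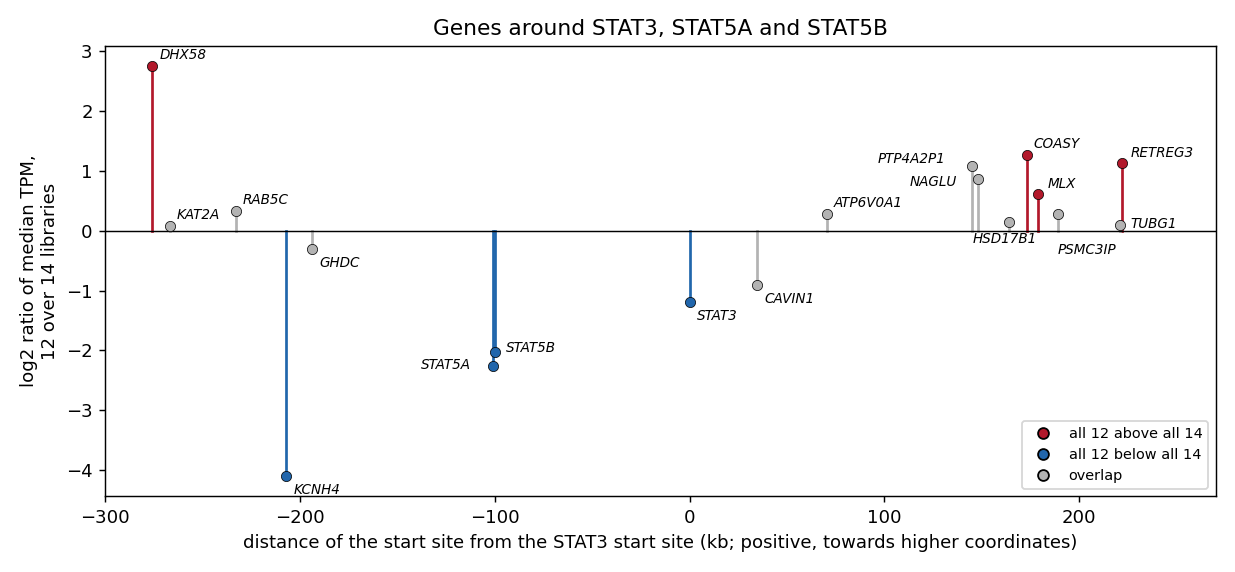
The log2 ratio of median TPM (12 over 14 libraries) of expressed genes within 250 kb of STAT3, against the distance of each start site from that of STAT3 in kb. Blue marks genes below in all 12 libraries, red genes above in all 12 and grey genes that overlap. STAT3, STAT5A, STAT5B and KCNH4 are blue.

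No member passed the test between the labelled lines. Each label held libraries of both sets, with 5 of the 12 and 7 of the 14 labelled BxPC3 and the rest labelled Panc-1. Differences between the sets are thus spread over both labels, and this test cannot show them. Between the 12 libraries labelled BxPC3 and the 14 labelled Panc-1, edgeR's quasi-likelihood test with Benjamini-Hochberg adjustment called 0 of 16008 genes (0.0%) at an adjusted p under 0.05, and 367 genes had an unadjusted p under 0.05. DESeq2 called 1 gene, MYH16, which is no member and is named here after its value was seen, and limma called 0. The adjusted p in edgeR was 1.00 for all 9 members. SOCS3 had the smallest unadjusted p among them, 0.0365, with a log2 change of -0.43 (SE 0.197) in Panc-1 labels relative to BxPC3 labels.

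Within the 12 libraries no gene passed the adjustment between the labels. SOCS3 and STAT2, which had the smallest unadjusted p of the members, are given in full. SOCS3 was 15.8, 24.9, 27.2, 33.3 and 35.4 TPM in the 5 libraries labelled BxPC3, and 8.51 to 18.6 TPM (median 14.2) in the 7 labelled Panc-1. Only library 25, at 15.8 TPM, fell among the Panc-1 labels. STAT2 was 33.2, 35.6, 44.7, 44.9 and 61.6 TPM in the BxPC3 labels and 11.5 to 37.0 TPM (median 23.9) in the Panc-1 labels. A fit in these 12 libraries alone, added after the data had been seen, gave a log2 change of -0.88 (SE 0.248) for SOCS3 with an edgeR adjusted p of 0.404, and -0.72 (SE 0.247) for STAT2 with an adjusted p of 0.405. SOCS1, with medians of 7.23 TPM in the BxPC3 labels and 2.56 TPM in the Panc-1 labels, had a change of -0.80 (SE 0.58) and an adjusted p of 0.603. That fit called 0 of 16124 genes, while 1840 had an unadjusted p under 0.05. In the 14 libraries alone the change of SOCS3 was -0.09 (SE 0.18) and that of STAT2 was 0.08 (SE 0.173). The difference between these changes was not tested.

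Among the 12 libraries clones differed more in SOCS1, SOCS3 and STAT2 than in STAT3. The SD of log2(TPM + 1) among the 12 libraries was 0.93 for SOCS1, and 2.65% of 14095 expressed genes had a larger one. It was 0.64 for STAT2 and 0.58 for SOCS3, with 7.70% and 10.4% of genes larger, and 0.16 for STAT3, with 91.8% larger, or 0.09 for STAT3 with TMM-scaled CPM. The resampled estimates that the authors deposited gave a technical SD of log2 counts of 0.17 for SOCS1, 0.0418 for SOCS3, 0.0351 for STAT2 and 0.0167 for STAT3, against 1.14, 0.58, 0.58 and 0.11 between the 12 libraries. The technical SD covers read assignment and sampling only, and not culture or library preparation. In the 14 libraries SOCS1 had the largest SD of the members expressed there, 0.53, whereas STAT3 (0.32), SOCS3 (0.33), STAT5A (0.33) and STAT2 (0.34) were close to each other. The SD of STAT4 among the 12, 1.05, fell to 0.44 without library 1. The SD of STAT5A among the 14, 0.33, fell to 0.19 without library 18.

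The highest correlation between any 2 members was that of SOCS1 and SOCS3 across the 12 libraries. Pearson's r of log2(TPM + 1) was 0.82 (permutation p = 0.00110, two-sided, adjusted p = 0.0627 over 57 pairs of members in both sets) and Spearman's rho was 0.85 (permutation p = 0.000860, adjusted p = 0.0490). Library 3 was lowest for both genes, and libraries 16, 21, 24 and 26, all labelled BxPC3, were high for both. Library 4, labelled Panc-1, had the highest SOCS1 at 14.1 TPM with SOCS3 at 18.6 TPM. Without it r was 0.97, without the 2 libraries farthest from the median of SOCS1 it was 0.96, and r was at least 0.76 whichever library was left out. Centred within each label r was 0.79, and it was 0.83 with CPM in place of TPM. Of all expressed genes, 2.07% had a correlation with SOCS1 at least this strong in either direction.

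**Figure D3:**
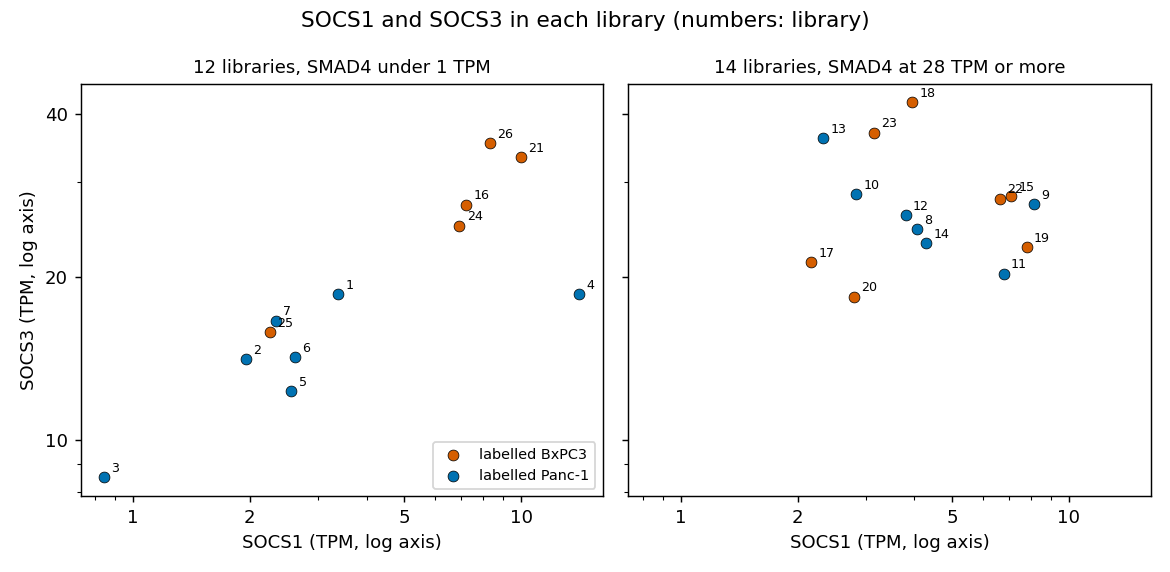
SOCS3 against SOCS1 in TPM on log axes in the 12 libraries (left) and the 14 (right), numbered by library and coloured by label. The 12 libraries rise along a line from library 3 to libraries 21 and 26, with library 4 to the right of it, and the 14 show no slope.

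In the 14 libraries r between SOCS1 and SOCS3 was -0.14 (permutation p = 0.627, adjusted p = 0.807). The difference between the sets was not tested. Both genes also went with the main axis of variation among the 12 libraries, the first principal component of all expressed genes but the members, which held 30.1% of their variance: r was 0.86 for SOCS1, 0.87 for SOCS3 and 0.71 for STAT2. SOCS3 went with the share of mitochondrial transcripts as well, with r of 0.68 among the 12, against 0.46 for SOCS1. The part of these library measures in the correlation was not tested.

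None of the 57 pairs passed an adjusted p under 0.05 with Pearson's r, and 11 had an unadjusted p under 0.05. Among the 12 libraries STAT2 had an r of 0.71 with SOCS3 (permutation adjusted p = 0.127, rho 0.82) and 0.64 with SOCS1 (permutation adjusted p = 0.156, rho 0.69). Centring within each label lowered these r to 0.45 and 0.48. STAT3 had an r of 0.74 with CISH (permutation adjusted p = 0.106, rho 0.76), but this r was 0.26 with TMM-scaled CPM. STAT5B with STAT6 and STAT5B with CISH were also lower with CPM, at 0.27 against 0.68 and 0.35 against 0.65. STAT3 with STAT5A was 0.67 in both units, but 0.26 without the 2 libraries farthest from the median of STAT3, so that it rested on those libraries. STAT3 had an r of -0.05 with SOCS3 and -0.06 with SOCS1 among the 12.

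Among the 14 libraries STAT3 with each of its STAT5 neighbours on chromosome 17 gave the highest values, but STAT5A with STAT5B had an r of 0.33. STAT3 with STAT5B had an r of 0.69 (permutation p = 0.00557, adjusted p = 0.106, rho 0.75), which was 0.67 with CPM and 0.72 without the 2 farthest libraries. STAT3 with STAT5A had an r of 0.63, which was 0.33 without library 18 alone. STAT2 with STAT6 had an r of 0.58, which was 0.24 without the 2 farthest libraries. STAT2 and SOCS1, positive among the 12, had an r of -0.52 here (permutation p = 0.0552).

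**Figure D4:**
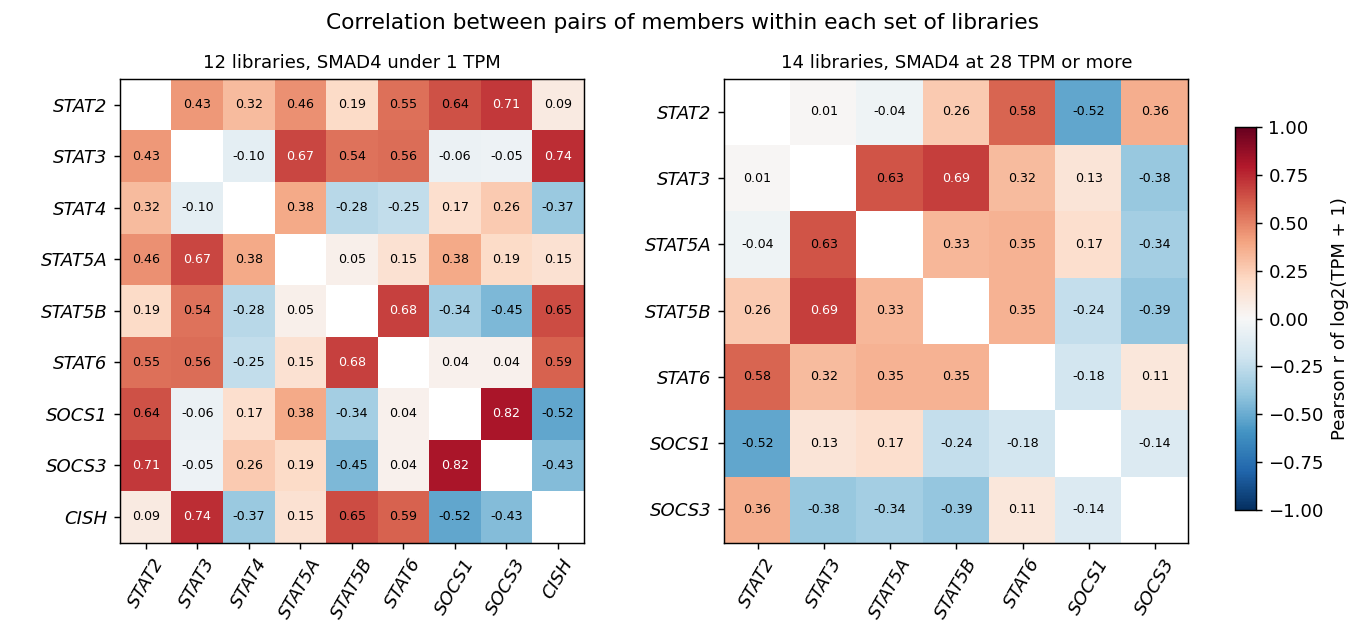
Pearson's r of log2(TPM + 1) for each pair of members within the 12 libraries (left) and the 14 (right), where STAT4 and CISH had a median under 1 TPM and are left out. Red is positive and blue negative. The highest value is 0.82, SOCS1 with SOCS3 on the left, where the same pair on the right is -0.14.

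The genes whose pattern was most like a member's were taken as the 3 highest r, as a description. They were sought among 12794 genes in the 12 libraries and 12191 in the 14, fewer than the 14095 and 13532 expressed there. For SOCS1 among the 12 libraries they were the neutrophil chemokine genes CXCL5, CXCL2 and CXCL3, with r of 0.95, 0.95 and 0.94. CXCL5 ran from 3.79 to 260 TPM over these 12 libraries and CXCL2 from 2.33 to 143 TPM. For SOCS3 they were TCN1 (r = 0.95), which encodes a vitamin B12 binding protein, IFNGR1 (r = 0.93), a chain of the interferon gamma receptor, and BMP2 (r = 0.93), a ligand of the TGF-beta family. IFNGR1 was also at 0.93 with SOCS1, and the interleukin-6 gene IL6 was at 0.90 with SOCS1 and 0.73 with SOCS3. Among the 14 libraries, other genes led. SOCS1 was nearest to PRPS2, ALOX5AP and AVEN, each at 0.84, and SOCS3 to PRKCE (0.85), MYNN (0.84) and ZNF821 (0.84), while IFNGR1 was at -0.25 and -0.31.

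For CISH among the 12 libraries the nearest genes were KAT2B (r = 0.97), an acetyltransferase gene, ACAP2 (0.96) and TCAF1 (0.95). STAT3 was nearest to NT5C2, SPATA5L1 and ITSN2 among the 12, each at 0.95, and to PLEKHA8P1 (0.94), DDX27 (0.90) and DPH1 (0.88) among the 14. STAT2 was nearest to FKBP9 (0.94), PNPLA6 (0.94) and SUSD6 (0.93) among the 12, and to CHKB (0.94), PARGP1 (0.91) and ZNF621 (0.90) among the 14. Its known partner IRF9 was at 0.92 with STAT2 among the 12 and 0.64 among the 14, and OSMR, the oncostatin M receptor, was at 0.89 and 0.24.

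The rest of the pathway was described by 5 lists. Of 4 JAK kinase genes, 3 were expressed and all overlapped between the sets, with JAK2 higher (log2 ratio 1.56), JAK1 lower (-0.74) and TYK2 near level (0.11) in the 12. JAK3 stayed at or below 1.03 TPM. Of 20 receptor chains 16 were expressed, with 3 above in all 12 libraries (IL2RG, IL4R and IFNGR1), 3 below (EPOR, LIFR and IL11RA) and 10 overlapping. Over all expressed genes 15.2% were above and 15.8% below, a background near the share of the receptor chains. IL2RG, the common chain of the interleukin-2 and interleukin-4 receptors, was 22.6 to 118 TPM in the 12 and 0 to 1.86 TPM in the 14. IL4R, its partner upstream of STAT6, was 78.9 to 143 TPM against 20.1 to 49.2 TPM. The erythropoietin receptor EPOR, a STAT5-activating receptor, was lower in the 12 with a ratio of -2.77, and so was LIFR, the receptor of leukemia inhibitory factor, with -2.03. IL6ST, the chain shared by interleukin-6 type receptors, was near level in both sets (89.8 to 171 TPM and 63.4 to 184 TPM).

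Of 9 ligands 5 were expressed, and all 5 overlapped. IL6 was 0.346 to 32.6 TPM in the 12 libraries and 0 to 0.933 TPM in the 14, where its median was 0. IL11, another cytokine of that family, was lower in the 12 with a log2 ratio of -2.44. All 13 other inhibitors on the list were expressed, and 7 of them were below in all 12 libraries, 2 above (PTPN1 and PTPN6) and 4 overlapped, against the same 15.8% below and 15.2% above. SOCS2 was lower with a ratio of -2.45, from 4.53 to 11.4 TPM against 34.0 to 73.1 TPM. SOCS6 was lower with a ratio of -2.94, from 4.06 to 6.15 TPM against 30.9 to 56.6 TPM. SOCS6 lies on chromosome 18, as SMAD4 does, and the part of its position in its level was not tested. PIAS3, an inhibitor of STAT3 by its textbook role, was lower at -1.40 and so was the phosphatase gene PTPN11 at -1.40, whereas the phosphatase gene PTPN1 was higher at 1.54. All 14 target and adaptor genes were expressed, with 3 above (CEBPD, JUNB and MCL1), 1 below (PIM2) and 10 overlapping, near the 31.0% of all expressed genes that did not overlap. CEBPD had a ratio of 3.21 and IRF9 of 2.97, from 5.83 to 72.1 TPM in the 12 against 2.99 to 12.2 TPM. FOS had a ratio of 2.75 on low levels, and PIM2, a STAT5 target, had -2.64. The median ratio was 0.11 for the kinases, 0.34 for the receptor chains, -0.62 for the other inhibitors and 0.42 for the targets and adaptors. It was -0.26 for the ligands, where IL6 has no ratio.

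**Figure D5:**
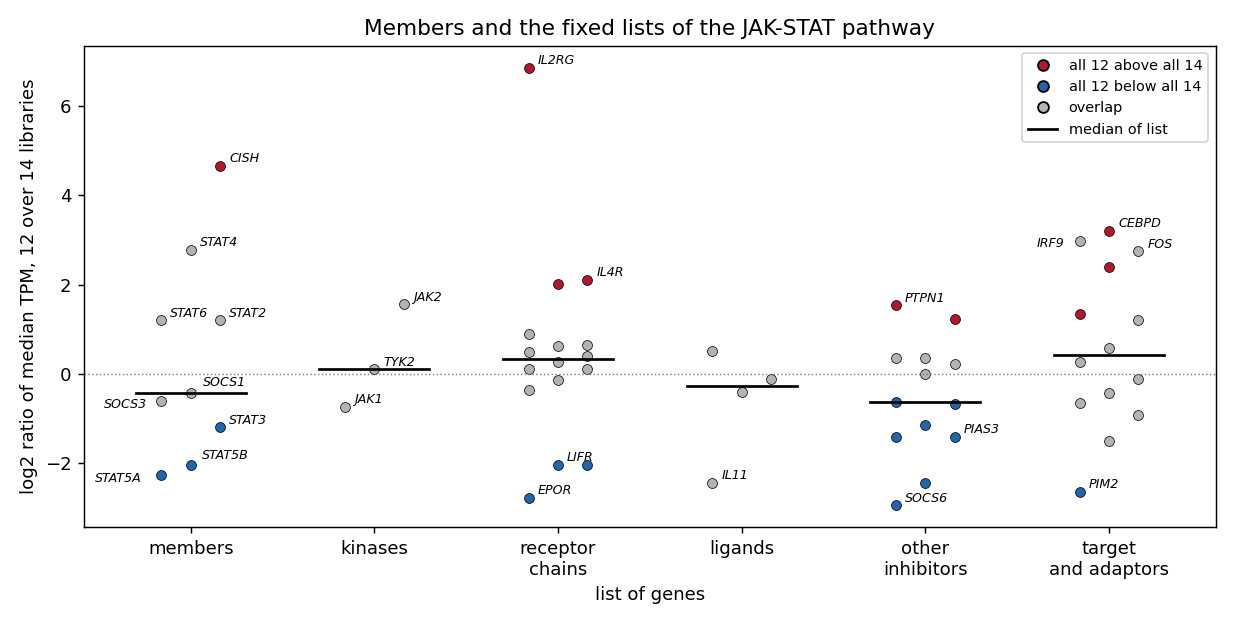
The log2 ratio of median TPM (12 over 14 libraries) of each expressed gene of the members and of 5 lists, with the median of each list as a bar. IL6 is not drawn because its median in the 14 was 0. Of the other inhibitors 7 of 13 are blue, below in all 12 libraries, and no kinase or ligand is coloured.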

How the data were processed

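Libraries of polyadenylated RNA from 26 SCDCLs were analysed from a table of the whole series. The authors assigned reads to transcripts with kallisto 0.46.1 on GRCh38 and summed them to 41078 genes. The authors deposited TPM, estimated counts remade from TPM and length and scaled to the library total, mean transcript length in bases, and 30 resampled estimates of each count. Depth was 27035724 to 34945608 estimated counts. Genes were matched by Ensembl identifier to GENCODE 44 on GRCh38, 36315 of them. No SCDCL had a second library, so p-values measure only the spread between libraries.

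Labels were compared with edgeR 4.0.16 (quasi-likelihood, TMM, filterByExpr, Benjamini-Hochberg) on rounded counts, with DESeq2 1.42.0 and limma 3.58.1 (log2 of CPM + 1) as alternatives, in R 4.3.3. Levels were described by range and median, with a minimum median of 1 TPM in either set of libraries. Pearson's r and Spearman's rho used log2(TPM + 1) with 100000 permutations (10000 for alternatives and 20000 when leaving out a library), adjusted over 57 pairs. Other steps ran in Python 3.11.15 (scipy 1.17.1, numpy 2.4.6, pandas 2.3.3). The fit between the labels was tested on simulated counts. The 250 kb window around a gene and the fits within each set were chosen after seeing the data. The text names all 9 members, up to 4 genes of each list with the largest ratios, and the 3 genes most like each of 5 members. MYH16, JUNB, MCL1, IL11RA, PTPN6, PTPN11, IL6ST, OSMR, IL6, IFNGR1 as a correlate and the chromosome 17 neighbours were named after their values were seen. The members and lists were chosen with earlier results of these data known.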

Additional observations from a re-analysis of the deposited data

How the results depend on the processing

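The count of members whose sets do not overlap was 4 with TPM. It was 5 with TMM-scaled CPM and with DESeq2 size factors, where STAT6 joined the other members. Leaving out the filter on low values could not change the count, since all members pass that filter. No ratio of medians changed direction in any alternative run. On the mean of log2(TPM + 1) the differences of the low members were smaller, 1.78 for CISH and 0.96 for STAT4, since a pseudocount of 1 lowers them. The SD of a member among the 12 libraries moved in 10 alternatives and held in 17. TMM-scaled CPM lowered it from 0.16 to 0.09 for STAT3, from 0.25 to 0.17 for STAT5B and from 0.33 to 0.23 for STAT6, and the other 7 were pseudocounts of 0.1 or 5 applied to STAT4, STAT5A, SOCS1 and CISH. DESeq2 called 1 gene between the labels where edgeR called 0. With values centred within each label 3 pairs of members passed an adjusted p under 0.05 (SOCS1 with SOCS3, STAT3 with CISH, STAT5B with STAT6). The permutations there moved values between labels and ignored the removed label means, so those p-values are somewhat too small. Without the 2 farthest libraries 1 pair passed, and with any single library left out the count was 0 to 1. STAT3 with STAT5B among the 12 libraries had an r of -0.31 with CPM, against 0.54 with TPM, and the cause was not tested. For the log2 change between the labels, no member passed the adjustment in any fit, and 8 values changed sign. STAT4 was -0.75 in DESeq2 and -0.04 with the SMAD4 set as a covariate (1.11 in edgeR), and STAT5A was 0.05 with that covariate and 0.13 in the 14 libraries alone (-0.04). STAT2 was 0.08 in the 14 libraries alone, and STAT3, STAT6 and CISH were -0.06, -0.23 and -0.01 in the 12 alone. No paired analysis was possible because the labels share no library numbers. Depth limits CISH and STAT4 in the 14 libraries, at medians of 0.118 and 0.165 TPM.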
